A study of Mus musculus with 8 samples.

Results

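The keratin genes of the mouse were followed through an ATAC-seq study of medullary thymic epithelial cells (mTEC). ATAC-seq uses a transposase that cuts open chromatin, so the number of sequenced tags in a region measures its accessibility, which is not expression. Members were all genes whose symbol is Krt followed by a number in the authors' merged and annotated peak table, without keratin-associated proteins. The rule found 36 keratin genes of 18215 genes and 114 of 74090 peaks, each peak belonging to the gene with the nearest start site. By chromosome, 18 genes with 59 peaks lay in the type I cluster on chromosome 11 and 18 genes with 55 peaks in the type II cluster on chromosome 15. Krt18, a type I keratin whose gene lies at the end of the type II cluster, was counted with the cluster where it lies. RefSeq's gene table for GRCm38.p6 holds 54 keratin symbols, and 19 of them had no peak assigned to them, among them Krt13 and Krt15, which therefore have no value here.

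All cells were sorted from thymi of C57BL/6 mice, digested with enzymes, as CD45-negative and Epcam-positive cells. mTEC-I was further gated as MHCII low and Itgb4+, mTEC-II as MHCII high, mTEC-III as Ly6D+, and mTEC-IV as MHCII low, Itgb4- and L1cam+. The labels name no treatment or mutation for any group, and neither age nor sex nor pooling of animals is given there. The gates enrich for these populations, so each library can hold other cells. Each population had 2 libraries, and since nothing states that they came from separate animals, p-values measure only the spread between libraries, which may be technical.

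Keratins form the intermediate filaments of epithelial cells. A filament is built from pairs of an acidic type I and a basic type II keratin, so a cell needs a member of each cluster, and the pair in use marks the kind of epithelium. Krt5 with Krt14 marks the basal layer of stratified epithelia, Krt8 with Krt18 marks simple epithelia, and other pairs mark differentiated epidermis, mucosa or hair. In the thymus, Krt5 and Krt14 are classical markers of the medulla and Krt8 and Krt18 of the cortex, although medullary cells can also carry the latter.

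Promoters of 6 keratins with a peak at the start site are shown first, because they belong to the start-site peaks of the basal and simple keratins described below, some of which differed between populations and some of which did not. Each line gives the 250 bases before the start, 5′ to 3′ on the gene's strand, from RefSeq with the GRCm38.p6 build. Krt5 and Krt14 are the basal pair, Krt8 and Krt18 the simple pair, and Krt7 and Krt23 are single members of simple epithelia. Capitals mark matches to the motifs GGGCGG (GC box) and CCGGAA (ETS) on either strand. Krt14 is shown at the inner of its 2 annotated starts, which lie 1480 bp apart.
Krt5: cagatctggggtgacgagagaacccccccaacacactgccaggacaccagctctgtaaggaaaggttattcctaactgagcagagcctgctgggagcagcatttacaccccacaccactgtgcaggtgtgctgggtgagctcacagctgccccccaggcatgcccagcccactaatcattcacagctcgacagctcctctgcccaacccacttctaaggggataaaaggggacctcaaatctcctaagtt
Krt14: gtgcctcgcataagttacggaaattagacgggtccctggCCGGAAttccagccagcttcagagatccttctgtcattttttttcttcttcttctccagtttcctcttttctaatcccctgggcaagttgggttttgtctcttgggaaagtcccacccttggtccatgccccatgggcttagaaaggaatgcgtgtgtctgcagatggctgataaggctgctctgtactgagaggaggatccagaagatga
Krt8: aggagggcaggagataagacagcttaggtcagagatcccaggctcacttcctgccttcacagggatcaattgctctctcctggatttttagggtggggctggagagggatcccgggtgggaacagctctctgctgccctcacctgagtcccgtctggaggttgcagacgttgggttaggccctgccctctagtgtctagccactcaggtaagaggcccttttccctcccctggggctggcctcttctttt
Krt18: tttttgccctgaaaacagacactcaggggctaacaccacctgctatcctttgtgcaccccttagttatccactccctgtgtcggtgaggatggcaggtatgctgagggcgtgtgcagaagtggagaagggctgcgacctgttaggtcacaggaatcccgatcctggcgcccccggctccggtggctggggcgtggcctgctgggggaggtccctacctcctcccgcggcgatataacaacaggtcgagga
Krt7: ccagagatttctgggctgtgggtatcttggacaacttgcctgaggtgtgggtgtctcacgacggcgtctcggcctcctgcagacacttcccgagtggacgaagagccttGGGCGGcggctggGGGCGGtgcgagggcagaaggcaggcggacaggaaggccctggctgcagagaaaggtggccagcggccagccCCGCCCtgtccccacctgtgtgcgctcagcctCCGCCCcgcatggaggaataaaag
Krt23: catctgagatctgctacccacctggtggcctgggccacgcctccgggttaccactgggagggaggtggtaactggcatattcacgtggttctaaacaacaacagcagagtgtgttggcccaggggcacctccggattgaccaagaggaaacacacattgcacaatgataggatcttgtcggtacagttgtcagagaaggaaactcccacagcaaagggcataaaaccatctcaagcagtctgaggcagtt
Both strands of the 250 bases before the start were searched for 7 motifs in the 23 keratins with a peak whose promoter is in the RefSeq table. TATAAA, the TATA box, stood in 10 of 23 keratin promoters (43.5%) and in 12.4% of all 32851 promoters. The 10 were Krt10, Krt12, Krt20, Krt25, Krt28, Krt31, Krt32, Krt71, Krt76 and Krt84, and none of the 6 promoters printed here holds this exact word. GGGCGG stood in Krt7 alone among the keratins (4.35%), with 4 matches, against 32.7% of all promoters. CCAAT stood in 10 keratin promoters (43.5%) against 33.8% of all. CCGGAA stood only in Krt14 (4.35% against 12.03%), while TGANTCA (AP-1, 6.75% of all), AACCGGTT (grainyhead, 0.116%) and ATGCAAAT (octamer, 1.60%) stood in none of the 23. A match is a description of the letters in this window and not a bound site.

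The total accessibility of the keratin genes was lowest in mTEC-II and similar in the other 3 populations, while single members differed widely. Values are tags per 10000000 total tags, further scaled by TMM (trimmed mean of M values) factors that even out the bulk of peaks, and are called scaled tags here. The 114 keratin peaks together held 1837 ± 20.9 scaled tags for mTEC-I (mean ± SD, n = 2), 1646 ± 25.7 for mTEC-II, 1866 ± 89.0 for mTEC-III and 1862 ± 61.2 for mTEC-IV. That difference was not tested. The keratin peaks took between 0.112% and 0.132% of all tags in peaks in each of the 8 libraries. Library depth was 3606440 to 10374600 tags, and 8.44% to 19.7% of tags lay in merged peaks, least in mTEC-III. A value of 0 allows up to 3 read ends, worth 1.33 to 4.94 scaled tags depending on the library, counting error only.

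A gene's value is the sum of all its peaks at any distance, and 31 of the 36 keratin genes reached 10 tags in at least 2 libraries and were tested. Krt12, Krt32, Krt6a, Krt76 and Krt79 did not pass, and 4 of the 31 (Krt33a, Krt36, Krt4 and Krt85) passed through the libraries of 1 population alone, so that a difference is built into their passing. In limma's F test over the 4 populations, fitted to all genes, 23 of 31 keratins were called at an adjusted p under 0.05, against 47.3% of all 17617 genes tested. Of single peaks, 55 of the 88 tested were called, against 49.4% of all 58341 peaks. Of the 88, 23 reached 10 tags in 1 population alone, so that a difference is built into their being tested, and 21 of these were called, against 34 of the other 65. The peak count was 35 and 32 without the first and second mTEC-I library and 35 and 34 without the first and second mTEC-IV library. The median log2 difference of the tested keratins from the mean of the other populations was -0.03 for mTEC-I, -0.16 for mTEC-II, 0.14 for mTEC-III and -0.33 for mTEC-IV. Over all genes it was -0.05, -0.01, -0.06 and 0.13.

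**Figure D1:**
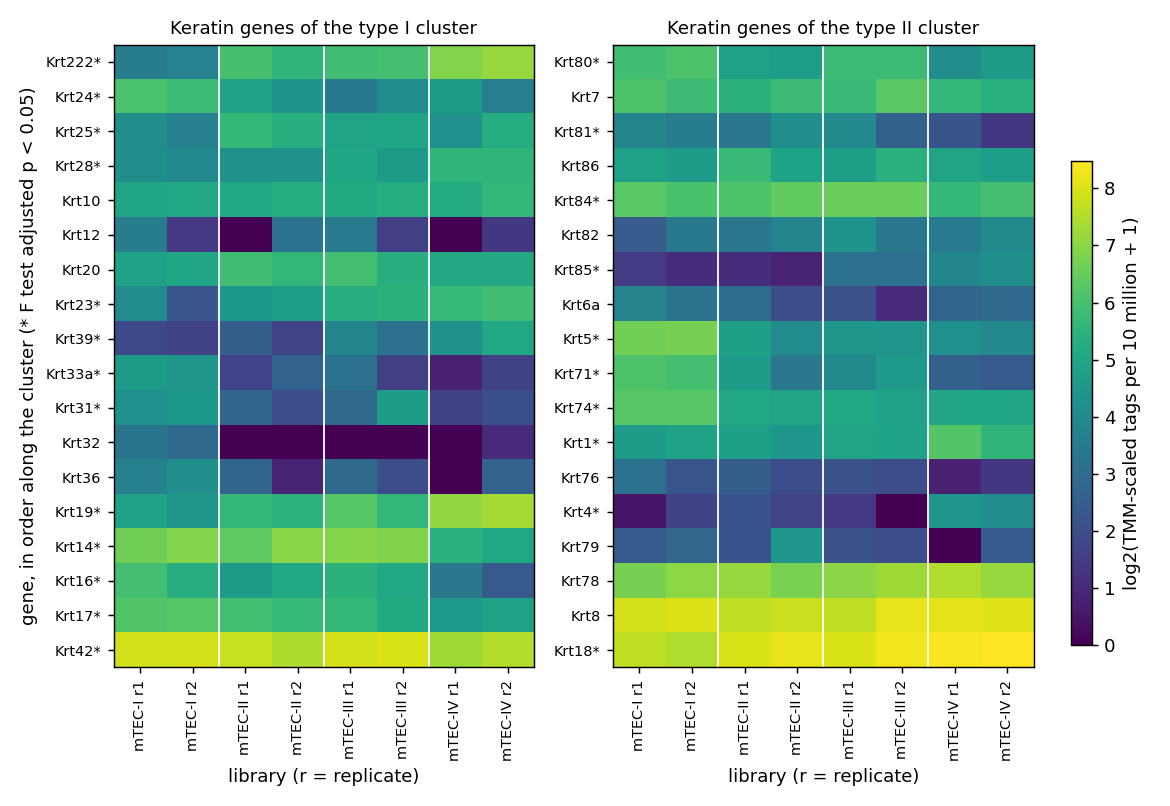
Heat map of the 36 keratin genes in the 8 libraries, as log2(scaled tags + 1), with genes in their order along the type I cluster (left) and the type II cluster (right). Columns are libraries, grouped by population with white lines between them, and a star marks the 23 genes called by the F test. Krt8, Krt18, Krt42 and Krt78 are bright in every library, Krt5, Krt71 and Krt74 are brightest in mTEC-I, and Krt222 and Krt19 are brightest in mTEC-IV.

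mTEC-I and mTEC-IV carried most of the differences, in both directions. Against the mean of the other 3 populations, 11 of 31 keratins were higher in mTEC-I (17.2% of all genes were) and 8 were lower (18% of all genes). In mTEC-IV, 9 were higher (19.6% of all genes) and 11 were lower (13.5% of all genes). Krt33a and Krt36 among those higher in mTEC-I, and Krt4 and Krt85 among those higher in mTEC-IV, passed the filter through that population alone. Their differences are built into their being tested, so they enter these counts as a description only. The same holds for Krt85 among those lower in mTEC-I and for Krt33a among those lower in mTEC-IV. Krt31 in mTEC-I and Krt39 in mTEC-IV also needed that population to be tested. In mTEC-II none was higher (4.73% of all genes) and 1, Krt85, was lower (5.77%). Since Krt85 reached the filter through mTEC-IV alone, this call is a description only. In mTEC-III only Krt14 was called higher (2.8%) and only Krt24 lower (4.65%). A call against this mean can rest on 1 of the other populations. In pairs, Krt85 in mTEC-II and Krt14 in mTEC-III were called only against mTEC-IV, and Krt24 in mTEC-III only against mTEC-I. Krt14 and Krt16, both among those higher in mTEC-I, were called there only against mTEC-IV. Krt5, among those lower in mTEC-IV, was called there only against mTEC-I. Krt85 held 1.15 and 0.764 in mTEC-II, less than 3 read ends are worth there (3.44 and 2.31). For the 0 in mTEC-II, limma gave 3 keratins at an unadjusted p under 0.05, edgeR called 1 and DESeq2 called 0. With 1 library of a population left out, the counts for that population were smaller: 6 and 5 higher and 5 and 4 lower in mTEC-I without its first and second library, and 4 and 4 higher and 7 and 8 lower in mTEC-IV. Keratins lower in mTEC-I numbered 5 without the second mTEC-IV library. With the authors' scaling alone, which shifts the median of all genes by 0.47, 0.21, -0.82 and 0.16 for mTEC-I to mTEC-IV, the split was 16 higher with 4 lower for mTEC-I, 1 with 0 for mTEC-II, 0 with 12 for mTEC-III and 8 with 9 for mTEC-IV.

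The 1 keratin lower in mTEC-II was lost without either mTEC-I, mTEC-II or mTEC-IV library, and without the first mTEC-III library the count was 2. The call of Krt14 as higher in mTEC-III was lost without either mTEC-III library or the second mTEC-IV library, and without the first mTEC-II library the count was 2. The Krt14 call was also lost with peaks within 10 kb of a start (limma adjusted p = 0.0792), where Krt23 was called higher instead (0.0467). With the authors' scaling alone, the Krt14 difference in mTEC-III was -0.095 (limma adjusted p = 0.717). The call of Krt24 as lower in mTEC-III was lost without either mTEC-I library, the first mTEC-II, the first mTEC-III or the first mTEC-IV library, and with edgeR and DESeq2. Without the second mTEC-IV library, 1 keratin was called higher in mTEC-II.

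In pairs, mTEC-I and mTEC-IV differed in 22 of 31 keratins (37.2% of all genes), 13 higher in mTEC-I and 9 higher in mTEC-IV. Among the 22 were Krt33a, Krt36, Krt4 and Krt85, which passed the filter through 1 of these populations alone, so that a difference is built in. Members of these 4 are also in the other counts that involve mTEC-I or mTEC-IV. mTEC-I differed from mTEC-II in 12 keratins (23.7% of all genes), 7 higher and 5 lower in mTEC-I, and from mTEC-III in 12 (25.9%), 6 in each direction. mTEC-IV differed from mTEC-II in 12 (25.2%) and from mTEC-III in 11 (23.4%). No keratin was called between mTEC-II and mTEC-III, where 0.46% of all genes were, 6 keratins had an unadjusted p under 0.05 in limma, and edgeR and DESeq2 also called 0. Leaving out 1 library changed several of these counts: mTEC-I against mTEC-II gave 4 without the second mTEC-I library and 8 without the second mTEC-II library, and mTEC-I against mTEC-III gave 7 and 6 without the first and second mTEC-I library. mTEC-II against mTEC-IV gave 6 without either mTEC-IV library, and mTEC-III against mTEC-IV gave 6 and 7.

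**Figure D2:**
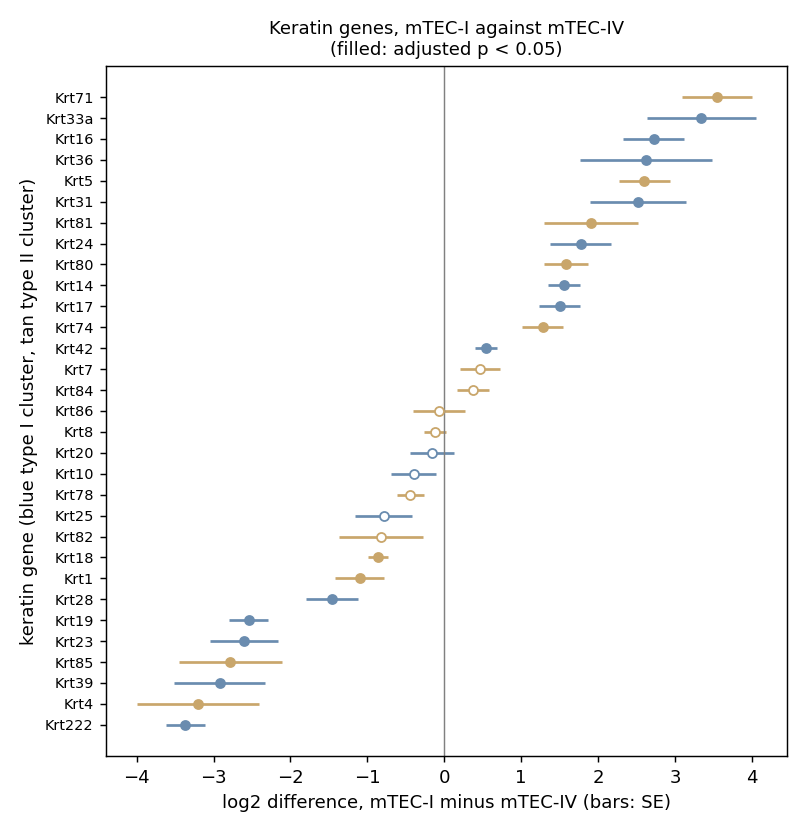
Log2 difference of each of the 31 tested keratin genes between mTEC-I and mTEC-IV (x axis, mTEC-I minus mTEC-IV, on log2(scaled tags + 1), bars are standard errors), with genes on the y axis in order of the difference. Filled points are called by limma at an adjusted p under 0.05, 13 to the right and 9 to the left. Genes of the type I cluster (blue) and the type II cluster (tan) stand on both sides.

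Of the basal pair, Krt5 was more open in mTEC-I than in each other population, and Krt14 was less open in mTEC-IV than in each other population. Krt5, the basal type II keratin, held 101 and 105 (mTEC-I), 26.4 and 16.1 (mTEC-II), 21.4 and 20.4 (mTEC-III), then 18.1 and 14.4 (mTEC-IV) over its 3 peaks. Both mTEC-I libraries lay far above the other 6, which lay close together. The difference of mTEC-I from the mean of the others was 2.37 ± 0.269 (SE, adjusted p = 1.72e-06) on the log2 scale, and mTEC-I was called against each of the other 3 populations. Krt14, its basal type I partner, held 99.6 and 119 (mTEC-I), 82.6 and 124 (mTEC-II), 120.2 and 117 (mTEC-III), then 40.6 and 32.4 (mTEC-IV) over 7 peaks. Here the mTEC-IV libraries stood alone and below, while the libraries of the other 3 populations overlapped. Krt14 differed in mTEC-IV by -1.56 ± 0.174 (SE, adjusted p = 9.62e-07), and its differences of mTEC-I from mTEC-II (0.11) and from mTEC-III (-0.12) were not called, with adjusted p = 0.766 and 0.711. In sorted populations such as these, fewer cells with an open site and less opening per cell cannot be told apart.

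At the start site of Krt5, whose sequence is given above, the peak at chr15:101543264-101543455 (mm9) held 41.3 and 48.9 (mTEC-I), 9.18 and 4.62 (mTEC-II), 3.30 and 9.17 (mTEC-III), then 0.724 and 1.06 (mTEC-IV). It was specific to mTEC-I, that is higher than in each of the other 3 populations at an adjusted p under 0.05. Both this peak and the next one reached the filter of 10 tags through mTEC-I alone, so that the difference is built into their being tested and their values are given as a description. A second mTEC-I-specific peak lay at -1022 bases from the start, at chr15:101544270-101544419, with 39.6 and 40.2 (mTEC-I), 5.74 and 5.38 (mTEC-II), 8.23 and 9.17 (mTEC-III), then 5.81 and 4.26 (mTEC-IV). The remaining Krt5 peak, 8617 bases from the start into the gene's side, was not called (F test adjusted p = 0.136).

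The peaks of Krt14 went different ways. The peak at the outer start, chr11:100068851-100068991, was specific to mTEC-I, through which alone it reached the filter, and held 28.5 and 33.2 (mTEC-I), 0 and 3.08 (mTEC-II), 0 and 5.09 (mTEC-III), then 1.45 and 0 (mTEC-IV). The peak at the inner start, whose promoter is printed above, lay at chr11:100067353-100067493 and held 22.2 and 21.7 (mTEC-I), 14.9 and 19.2 (mTEC-II), 14.8 and 13.2 (mTEC-III), then 0.724 and 1.06 (mTEC-IV). That peak was low in mTEC-IV (-3.28 ± 0.416 SE, adjusted p = 4.21e-05) and, unlike the outer one, had 13.2 scaled tags or more in every library of the other 3 populations. An intronic peak 583 bases past the inner start, chr11:100066637-100066885, held 16.9 and 19.6 (mTEC-I), 41.3 and 46.1 (mTEC-II), 62.6 and 40.8 (mTEC-III), then 10.9 and 9.04 (mTEC-IV). Both mTEC-II and both mTEC-III libraries lay above all others at this peak, which was called higher in mTEC-II (1.01 ± 0.263 SE, adjusted p = 0.0272) and in mTEC-III (1.29 ± 0.263 SE, adjusted p = 0.0202). The similar sums of Krt14 outside mTEC-IV were therefore made up of different peaks.

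**Figure D3:**
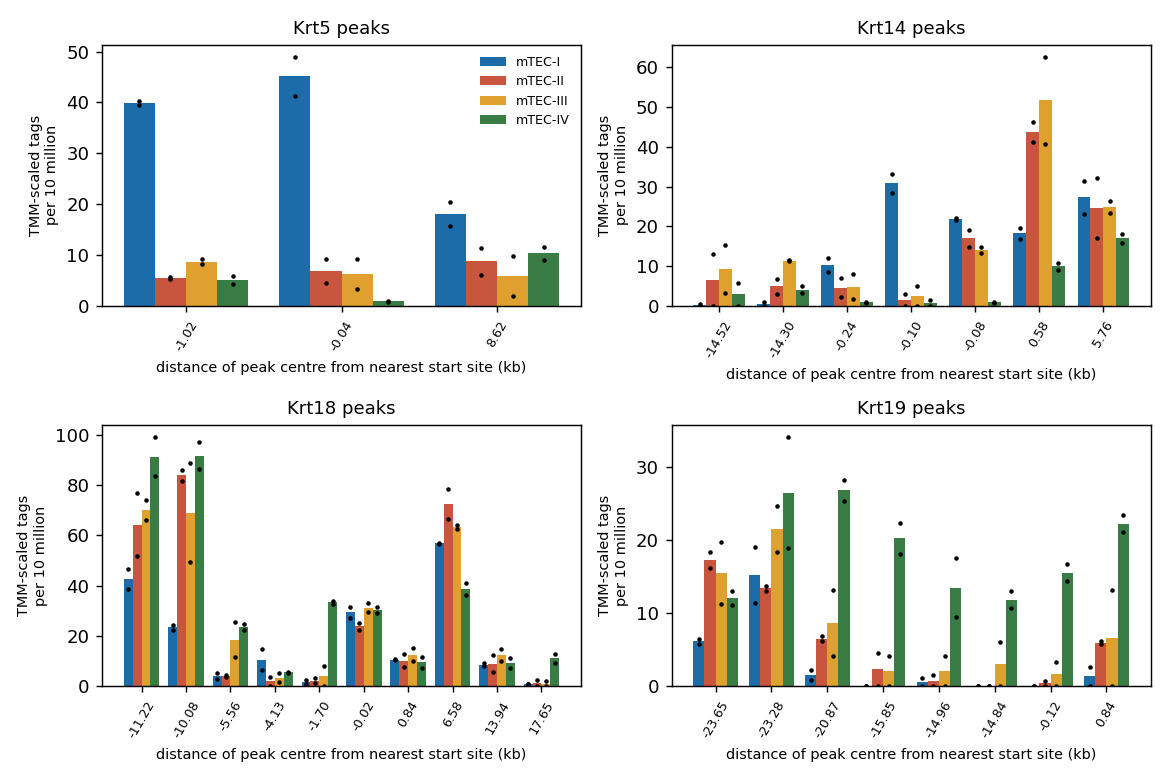
Accessibility of every peak assigned to Krt5, Krt14, Krt18 and Krt19, in scaled tags (y axis), ordered by the distance of the peak from its nearest annotated start in kb (x axis, not to scale). Bars are means of 2 libraries, dots are the libraries and colours are populations. For Krt14 the bars at -0.10 kb belong to the outer start and those at -0.08 kb to the inner start. Within Krt5 the mTEC-I bar is the highest at the start, within Krt14 the mTEC-II and mTEC-III bars are the highest in the intron at 0.58 kb, and at the Krt19 start the mTEC-IV bar is the highest.

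Of the keratins induced by wounding and stress, the type I members Krt16 and Krt17 were low in mTEC-IV. Krt16 held 60.01 and 38.05 (mTEC-I), 24.1 and 32.3 (mTEC-II), 42.8 and 32.6 (mTEC-III), then 9.44 and 4.25 (mTEC-IV), and its log2 difference in mTEC-IV was -2.35 ± 0.323 (SE, adjusted p = 1.2e-05). Krt17 held 70.7 and 74.5 (mTEC-I), 58.5 and 49.99 (mTEC-II), 49.4 and 34.7 (mTEC-III), then 22.5 and 27.7 (mTEC-IV), with -1.10 ± 0.219 (SE, adjusted p = 0.000587) in mTEC-IV and 0.90 ± 0.219 (SE, adjusted p = 0.00302) in mTEC-I. The mTEC-IV libraries lay below all others in both genes. In pairs, limma did not call Krt17 between mTEC-III and mTEC-IV (adjusted p = 0.0604) or between mTEC-I and mTEC-II (0.278). A Krt17 peak at -2860 bases stood in the authors' own peak lists of both mTEC-IV libraries and in no other list. At the Krt17 start, chr11:100122326-100122491, the peak held 45.3 and 36.4 (mTEC-I), 37.9 and 39.99 (mTEC-II), 32.9 and 26.5 (mTEC-III), then 6.53 and 10.6 (mTEC-IV), and it was lower in mTEC-IV, with a log2 difference of -1.98 ± 0.267 (SE, adjusted p = 6.65e-05). The Krt16 peak nearest its start lay at -4133 bases and was not called (0.113 in the F test), while the peak at -5676 bases was lower in mTEC-IV (adjusted p = 0.000103). That peak held 36.9 and 20.1 (mTEC-I), 9.18 and 20.001 (mTEC-II), 19.8 and 19.4 (mTEC-III), then 2.18 and 1.06 (mTEC-IV). Krt6a, a type II partner of both, held 12.9 and 8.70 (mTEC-I), 6.89 and 3.08 (mTEC-II), 3.30 and 1.01 (mTEC-III), then 5.80 and 6.38 (mTEC-IV), below the filter in most libraries, and was not tested.

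Among keratins of simple epithelia, the pair Krt8 and Krt18 was open in every population. Against the mean of the other populations, Krt18, Krt19 and Krt23 were lower in mTEC-I and higher in mTEC-IV. In pairs, mTEC-IV was called against each other population for Krt19, but only against mTEC-I for Krt18 and Krt23. Limma's adjusted p of mTEC-IV against mTEC-II and mTEC-III was 0.0656 and 0.138 for Krt18, and 0.058 and 0.53 for Krt23. Krt8, the type II member, held 239 and 261 (mTEC-I), 204 and 221 (mTEC-II), 204 and 290.5 (mTEC-III), then 276 and 268 (mTEC-IV) over 7 peaks. It was not called (F test adjusted p = 0.193). Its start peak, chr15:101834670-101834980, held 71.6 and 77.2 (mTEC-I), 67.7 and 73.1 (mTEC-II), 82.4 and 85.6 (mTEC-III), then 111 and 93.6 (mTEC-IV) and was in the authors' own peak list of every library. Krt18, the type I member, held 201 and 176 (mTEC-I), 256 and 289.97 (mTEC-II), 257 and 315 (mTEC-III), then 332 and 355 (mTEC-IV) over 10 peaks. Both mTEC-I libraries lay below all others, and the differences were -0.66 ± 0.106 (SE, adjusted p = 7.24e-05) in mTEC-I and 0.49 ± 0.106 (SE, adjusted p = 0.00121) in mTEC-IV. The Krt18 start peak, chr15:101858522-101858728, did not carry this: it held 31.6 and 27.2 (mTEC-I), 25.2 and 22.3 (mTEC-II), 32.9 and 29.6 (mTEC-III), then 29.03 and 31.4 (mTEC-IV). It was not called (adjusted p = 0.622). With the sum limited to peaks within 1 kb of the start, the mTEC-I difference of Krt18 was 0.036 and the mTEC-IV difference 0.023 (adjusted p = 0.946 and 0.959). Within 10 kb they were -0.19 and 0.23 (adjusted p = 0.36 and 0.259), so that neither call held. Krt8 went the other way and was called within 10 kb (F test adjusted p = 0.0433). There it was higher in mTEC-IV by 0.39 (limma adjusted p = 0.0421). Within 1 kb Krt8 was not called (F test adjusted p = 0.166).

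Both Krt18 calls were also lost with the authors' scaling alone, where the differences were -0.15 (adjusted p = 0.578) and 0.53 (0.0513). The differences of Krt18 lay in peaks away from its start, in the interval between Krt8 and Krt18. A peak at -10078 bases, chr15:101848471-101848668, held 24.4 and 22.3 (mTEC-I), 86.1 and 81.5 (mTEC-II), 49.4 and 88.7 (mTEC-III), then 97.2 and 86.2 (mTEC-IV), with a difference of -1.73 ± 0.209 (SE, adjusted p = 6.24e-05) in mTEC-I. The peak at -1698 bases, chr15:101856884-101857015, was specific to mTEC-IV, through which alone it reached the filter, and held 2.67 and 1.09 (mTEC-I), 1.15 and 3.08 (mTEC-II), 0 and 8.16 (mTEC-III), then 32.7 and 34.05 (mTEC-IV). A pair of neighbouring peaks in this interval, 521 bp apart, differed in opposite directions. The first, chr15:101846577-101846747, assigned to Krt8, was specific to mTEC-I with 39.6 and 41.3 (mTEC-I), 13.8 and 16.1 (mTEC-II), 11.5 and 26.5 (mTEC-III), then 13.1 and 11.2 (mTEC-IV). The second, chr15:101847269-101847576, assigned to Krt18, held 46.7 and 38.6 (mTEC-I), 51.6 and 76.9 (mTEC-II), 74.1 and 66.3 (mTEC-III), then 83.4 and 98.96 (mTEC-IV). Limma called it lower in mTEC-I, with a log2 difference of -0.78 ± 0.192 (SE, adjusted p = 0.00501). Another Krt8 peak, at -8183 bases, held 0.442 and 0 (mTEC-I), 0 and 1.54 (mTEC-II), 6.59 and 15.3 (mTEC-III), then 23.9 and 32.99 (mTEC-IV). This peak was higher in mTEC-IV (3.39 ± 0.577 SE, adjusted p = 0.000297), and it needed the mTEC-IV libraries to reach the filter. An intronic Krt8 peak at 1099 bases, with 10.7 and 13.6 (mTEC-I), 55.1 and 33.1 (mTEC-II), 21.4 and 30.6 (mTEC-III), then 21.05 and 16.5 (mTEC-IV), was the Krt8 peak called higher in mTEC-II (1.21 ± 0.295 SE, adjusted p = 0.0217). The sum of Krt8 over all its peaks, which was not called, thus covered peaks that differed, as that of Krt14 did.

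Krt19, a type I keratin of glandular and simple epithelia, held 28.5 and 21.2 (mTEC-I), 49.3 and 43.8 (mTEC-II), 74.1 and 47.9 (mTEC-III), then 136 and 162 (mTEC-IV) over 8 peaks. Both mTEC-IV libraries lay above and both mTEC-I libraries below all others, with differences of 1.83 ± 0.208 (SE, adjusted p = 1.23e-06) in mTEC-IV and -1.56 ± 0.208 (SE, adjusted p = 9.98e-06) in mTEC-I. Its start peak, chr11:100007298-100007416, held 0 and 0 (mTEC-I), 0 and 0.764 (mTEC-II), 3.30 and 0 (mTEC-III), then 16.7 and 14.4 (mTEC-IV). Both mTEC-I libraries had no tag there, which allows up to 1.33 and 1.63 scaled tags. The peak was specific to mTEC-IV, and like the next one it reached the filter through mTEC-IV alone, so that this difference is built into its being tested. A further mTEC-IV-specific peak, at -15847 bases in a LINE repeat at chr11:100023023-100023151, held 0 and 0 (mTEC-I), 4.59 and 0 (mTEC-II), 0 and 4.08 (mTEC-III), then 18.1 and 22.3 (mTEC-IV). Krt23, another type I keratin of simple epithelia, held 16.01 and 3.80 (mTEC-I), 21.8 and 25.4 (mTEC-II), 37.9 and 42.8 (mTEC-III), then 50.8 and 57.5 (mTEC-IV), and its log2 difference was -2.08 ± 0.359 (SE, adjusted p = 0.000155) in mTEC-I and 1.40 ± 0.359 (SE, adjusted p = 0.0049) in mTEC-IV. The Krt23 start peak, chr11:99354492-99354620, held 1.33 and 1.09 (mTEC-I), 9.18 and 9.996 (mTEC-II), 19.8 and 15.3 (mTEC-III), then 13.8 and 13.8 (mTEC-IV), so that mTEC-I was the population that stood apart there (-2.69 ± 0.443 SE, adjusted p = 0.000478).

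Krt7, a type II keratin of ducts and glands, held 67.6 and 55.4 (mTEC-I), 42.5 and 55.4 (mTEC-II), 51.1 and 78.5 (mTEC-III), then 47.9 and 40.4 (mTEC-IV). Krt20, a type I keratin of the gut lining, held 28.5 and 31.5 (mTEC-I), 57.4 and 47.7 (mTEC-II), 60.9 and 38.7 (mTEC-III), then 33.4 and 33.5 (mTEC-IV). Neither was called by limma's F test (adjusted p = 0.238 and 0.0623), whereas edgeR and DESeq2 called Krt20 (0.0225 and 0.0493). The Krt7 start peak, chr15:101242599-101242998, the widest keratin peak with 400 bp, held 44.5 and 42.9 (mTEC-I), 16.1 and 31.5 (mTEC-II), 26.4 and 31.6 (mTEC-III), then 36.3 and 36.2 (mTEC-IV). It was not called (0.0906). The Krt20 peaks lay at -25192 and -26841 bases from its start, so their assignment to Krt20 rests on the nearest-start rule alone, and the nearer one, at chr11:99324568-99324751, was not called (0.756).

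**Figure D4:**
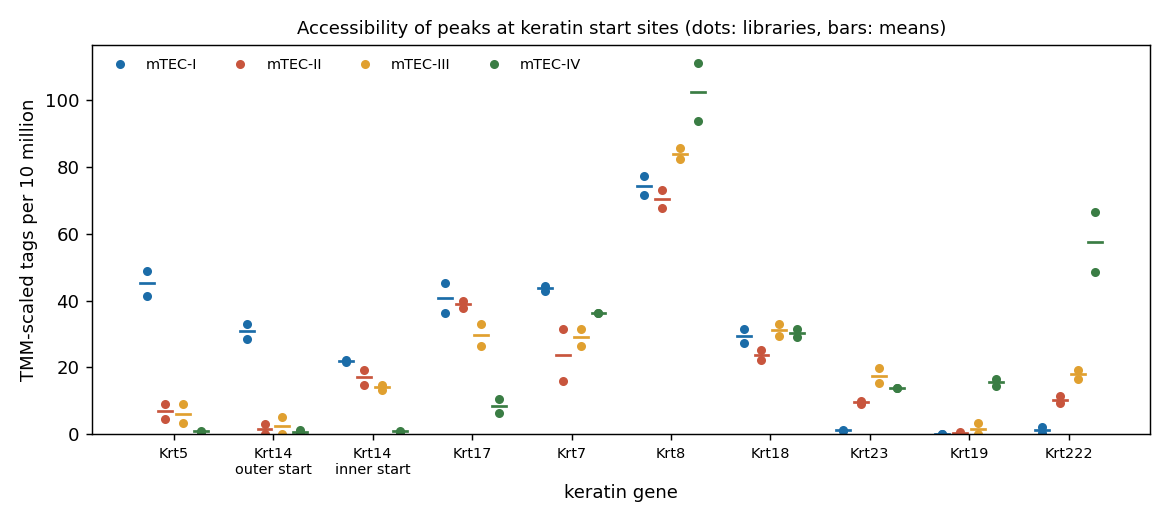
Accessibility of 10 peaks at keratin start sites, in scaled tags (y axis), for 9 genes (x axis), where Krt14 has an outer and an inner start. Dots are libraries, short bars are means of 2, and colours are populations. Krt5 and the outer Krt14 start stand out in mTEC-I, the inner Krt14 start and Krt17 are low in mTEC-IV, Krt8 and Krt18 are open in all populations, Krt23 is low in mTEC-I, and Krt19 and Krt222 stand out in mTEC-IV.

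Keratins of differentiated epidermis and mucosa were higher in mTEC-IV or not called, apart from Krt24. Krt1, the suprabasal type II keratin, held 24.9 and 28.8 (mTEC-I), 26.4 and 20.8 (mTEC-II), 29.6 and 29.5 (mTEC-III), then 72.6 and 47.3 (mTEC-IV). It was higher in mTEC-IV, with a log2 difference of 1.12 ± 0.257 (SE, adjusted p = 0.00206). Without the first mTEC-IV library the difference was 0.81 and its adjusted p 0.141, so this call rests on that library. Its peak nearest the start, 4681 bases into the gene's side at chr15:101676370-101676702, was not called (0.125). Krt10, its type I partner, held 30.7 and 32.1 (mTEC-I), 33.3 and 36.9 (mTEC-II), 34.6 and 36.7 (mTEC-III), then 36.3 and 47.9 (mTEC-IV). It was not called (0.648), and its peak nearest the start, at -1690 bases, did not reach the filter. Krt4, a type II keratin of mucosa, had a single peak at -4909 bases, chr15:101760008-101760142, in the last exon of Krt79, which held 0.442 and 2.17 (mTEC-I), 3.44 and 2.30 (mTEC-II), 1.64 and 0 (mTEC-III), then 21.05 and 16.5 (mTEC-IV). It was specific to mTEC-IV, through which alone it reached the filter. Krt24, a type I keratin, held 67.1 and 53.3 (mTEC-I), 28.7 and 20.001 (mTEC-II), 9.87 and 16.3 (mTEC-III), then 23.95 and 11.7 (mTEC-IV). Limma called it higher in mTEC-I, with a log2 difference of 1.73 ± 0.326 (SE, adjusted p = 0.000357). Its mTEC-I-specific peak at 8295 bases, chr11:99138182-99138333, held 33.8 and 29.4 (mTEC-I), 10.3 and 4.62 (mTEC-II), 4.94 and 8.16 (mTEC-III), then 2.90 and 2.66 (mTEC-IV). That peak needed the mTEC-I libraries to reach the filter. The peak nearest the Krt24 start, at -7790 bases, was not called (0.298). Krt78, whose 3 peaks held 105 to 174 scaled tags, was not called (0.151).

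Keratins of the hair follicle's inner root sheath were split between the populations, with all 4 tested genes called by the F test, against 47.3% of all genes. Krt71, a type II member, held 67.6 and 62.5 (mTEC-I), 24.1 and 9.22 (mTEC-II), 14.8 and 22.4 (mTEC-III), then 5.09 and 4.25 (mTEC-IV). mTEC-I lay above and mTEC-IV below all others, with 2.46 ± 0.368 (SE, adjusted p = 3.75e-05) and -2.27 ± 0.368 (SE, adjusted p = 7.64e-05). The peak at 13052 bases, chr15:101560397-101560555, was specific to mTEC-I with 42.7 and 46.2 (mTEC-I), 2.29 and 6.15 (mTEC-II), 4.94 and 12.2 (mTEC-III), then 2.18 and 2.13 (mTEC-IV). That peak needed the mTEC-I libraries to reach the filter. Krt74 held 76.02 and 76.1 (mTEC-I), 33.3 and 29.997 (mTEC-II), 32.9 and 28.5 (mTEC-III), then 31.2 and 30.3 (mTEC-IV). The gene was higher in mTEC-I, with a log2 difference of 1.27 ± 0.221 (SE, adjusted p = 0.000173), with an mTEC-I-specific peak at -9332 bases, chr15:101603121-101603413, of 44.5 and 52.2 (mTEC-I), 19.5 and 24.6 (mTEC-II), 24.7 and 14.3 (mTEC-III), then 18.9 and 23.4 (mTEC-IV). The type I members went the other way. Krt28 held 17.8 and 14.7 (mTEC-I), 19.5 and 19.2 (mTEC-II), 31.3 and 23.4 (mTEC-III), then 46.4 and 45.8 (mTEC-IV). It was higher in mTEC-IV with a log2 difference of 1.14 ± 0.278 (SE, adjusted p = 0.00331), a call lost without the first (adjusted p = 0.0656) or the second (0.0524) mTEC-IV library. Krt25 held 17.8 and 11.96 (mTEC-I), 49.3 and 39.2 (mTEC-II), 29.6 and 30.6 (mTEC-III), then 18.2 and 36.7 (mTEC-IV). Limma called it lower in mTEC-I with a log2 difference of -1.10 ± 0.303 (SE, adjusted p = 0.00744), a call lost without the second mTEC-I library (adjusted p = 0.168) and with the authors' scaling alone (0.119). The peaks nearest the starts of these genes lay at 1656 (Krt25), 4149 (Krt28), 5112 (Krt71) and -7161 bases (Krt74).

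Of 10 hair shaft keratins with a peak, 9 were tested and 6 called by the F test, in both directions, against 47.3% of all genes. Krt33a, Krt36 and Krt85 among them reached the filter through 1 population alone. Outside mTEC-I, Krt31 reached 10 tags in 1 library only, and so did Krt39 outside mTEC-IV. Both needed that population to be tested, so that a difference is partly built in. Krt33a, with 1 intronic peak at chr11:99875258-99875401 that was specific to mTEC-I, held 24.01 and 21.2 (mTEC-I), 2.29 and 5.38 (mTEC-II), 8.23 and 2.04 (mTEC-III), then 0.724 and 2.13 (mTEC-IV). It reached the filter through mTEC-I alone. Krt31 held 18.2 and 21.7 (mTEC-I), 5.74 and 3.08 (mTEC-II), 6.59 and 24.5 (mTEC-III), then 2.18 and 3.19 (mTEC-IV). The gene was higher in mTEC-I with a log2 difference of 1.70 ± 0.508 (SE, adjusted p = 0.0128), and the call was lost without the first (adjusted p = 0.109) or second (0.179) mTEC-I library. Krt39 held 2.67 and 2.17 (mTEC-I), 4.59 and 2.30 (mTEC-II), 13.2 and 8.14 (mTEC-III), then 18.9 and 32.5 (mTEC-IV). It was higher in mTEC-IV, with a log2 difference of 2.23 ± 0.482 (SE, adjusted p = 0.00121), which was lost without the second mTEC-IV library (0.0942). Krt85 held 1.78 and 1.09 (mTEC-I), 1.15 and 0.764 (mTEC-II), 8.23 and 8.16 (mTEC-III), then 13.8 and 17.6 (mTEC-IV), where the mTEC-III libraries lay between those of mTEC-IV and the rest. It was called higher in mTEC-IV, through which alone it reached the filter. Krt81 and Krt84 were lower in mTEC-IV, with log2 differences of -1.80 and -0.53 (adjusted p = 0.00828 and 0.0223). In pairs, limma called Krt84 in mTEC-IV only against mTEC-III. It called Krt81 against mTEC-I and mTEC-II but not against mTEC-III (adjusted p = 0.0801). Krt81 was lost without the second mTEC-IV library (0.156), and Krt84 without the first mTEC-IV (0.326) or the first mTEC-I library (0.0676), or with the authors' scaling alone (0.146). An mTEC-IV-specific Krt84 peak at 9798 bases, chr15:101353394-101353512, in a LINE repeat within an intron, reached the filter through mTEC-IV alone. That peak held 0.442 and 0 (mTEC-I), 1.15 and 2.30 (mTEC-II), 1.64 and 4.08 (mTEC-III), then 11.6 and 15.4 (mTEC-IV), against the direction of the gene's sum. Krt36, Krt82 and Krt86 were not called by the F test (adjusted p = 0.0645, 0.421 and 0.441), whereas edgeR called Krt36 (0.00966) and DESeq2 did not (0.0723). Krt36 held 0 to 17.4 scaled tags over the 8 libraries and was called in the pair of mTEC-I and mTEC-IV, Krt82 held 4.44 to 19.8 and Krt86 25.002 to 52.8. Of the keratins that limma did not test, Krt12 held 0 to 10.7, Krt32 0 to 8.89, Krt76 0.724 to 8.01 and Krt79 0 to 20.8, and DESeq2, whose filter differs, called Krt32 (0.0204).

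The keratin with the lowest F test p was Krt222, a keratin-like type I gene at one end of the cluster. It held 11.1 and 12.5 (mTEC-I), 63.1 and 46.9 (mTEC-II), 57.6 and 60.1 (mTEC-III), then 119 and 144 (mTEC-IV) over 4 peaks. Every mTEC-I library lay below and every mTEC-IV library above the rest, with -2.57 ± 0.209 (SE, adjusted p = 4.92e-08) in mTEC-I and 1.92 ± 0.209 (SE, adjusted p = 7.65e-07) in mTEC-IV. Its start peak, chr11:99105511-99105682, was specific to mTEC-IV with 2.23 and 0.543 (mTEC-I), 11.5 and 9.23 (mTEC-II), 16.5 and 19.4 (mTEC-III), then 48.6 and 66.5 (mTEC-IV). So was a peak at -3300 bases, chr11:99108622-99108740, which reached the filter through mTEC-IV alone, with 0.442 and 0 (mTEC-I), 3.44 and 1.54 (mTEC-II), 3.30 and 4.08 (mTEC-III), then 16.7 and 26.6 (mTEC-IV). A peak at -6787 bases was low in mTEC-I and similar in the others, with 8.01 and 11.96 (mTEC-I), 43.6 and 36.2 (mTEC-II), 36.2 and 30.6 (mTEC-III), then 34.8 and 34.6 (mTEC-IV). Krt80, a type II keratin, held 57.3 and 68.5 (mTEC-I), 27.5 and 26.1 (mTEC-II), 54.3 and 54.02 (mTEC-III), then 17.4 and 23.4 (mTEC-IV). Limma called it higher in mTEC-I and lower in mTEC-IV, with log2 differences of 0.996 ± 0.233 (SE, adjusted p = 0.00239) and -1.12 ± 0.233 (SE, adjusted p = 0.000874). In pairs, limma called neither mTEC-I against mTEC-III (adjusted p = 0.634) nor mTEC-IV against mTEC-II (0.352) for this gene. Its start peak held 10.2 and 5.98 (mTEC-I), 13.8 and 9.996 (mTEC-II), 19.8 and 18.4 (mTEC-III), then 5.08 and 10.6 (mTEC-IV) and had an F test adjusted p of 0.152.

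Krt42, a type I keratin at the other end of that cluster, held 236 and 245 (mTEC-I), 215 and 171 (mTEC-II), 244 and 254 (mTEC-III), then 152 and 179 (mTEC-IV) over 7 peaks. The gene was lower in mTEC-IV, with a log2 difference of -0.45 ± 0.113 (SE, adjusted p = 0.00431), a call lost without the first mTEC-IV library (adjusted p = 0.16) and with the authors' scaling alone (0.157). Its sum rests on distant peaks that differed in opposite directions. The peak at -17307 bases held 83.1 and 90.2 (mTEC-I), 63.1 and 22.3 (mTEC-II), 74.1 and 69.3 (mTEC-III), then 19.6 and 20.8 (mTEC-IV), while the peak at -23160 bases held 0 and 0 (mTEC-I), 1.15 and 6.15 (mTEC-II), 4.94 and 3.05 (mTEC-III), then 17.4 and 19.7 (mTEC-IV). The difference of the first in mTEC-IV was -1.57 (adjusted p = 0.00042), and the second reached the filter through mTEC-IV alone.

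Known partners were compared per kb of peak, since peak lengths differ between genes. In mTEC-I, all Krt5 peaks held 214 ± 5.20 scaled tags per kb and those of Krt14 89.7 ± 11.3 (mean ± SD, n = 2). They held 44.03 ± 14.98 and 84.7 ± 23.9 in mTEC-II, then 43.3 ± 1.52 and 97.5 ± 1.76 in mTEC-III, and for mTEC-IV 33.6 ± 5.53 and 29.997 ± 4.75. Krt5 thus had the higher density in mTEC-I and the lower one in mTEC-III, each beyond the SDs, and in mTEC-II, where the Krt14 libraries were far apart, it was also lower. For the simple pair the densities were 175 ± 10.7 for Krt8 and 104 ± 9.89 for Krt18 in mTEC-I, and 190.3 ± 4.11 and 190.3 ± 9.02 in mTEC-IV. The pair was alike within the SDs for mTEC-II (Krt8 148 ± 8.15, Krt18 151 ± 13.3) and mTEC-III (Krt8 173 ± 42.6, Krt18 158 ± 22.7). At the start peaks alone, Krt8 had the higher density in every population, beyond the SDs. Krt8 held 239 ± 12.8 scaled tags per kb (mTEC-I), 226 ± 12.2 (mTEC-II), 270 ± 7.42 (mTEC-III), then 329 ± 39.5 (mTEC-IV). Krt18 held 142 ± 14.97 (mTEC-I), 115 ± 10.03 (mTEC-II), 151 ± 11.6 (mTEC-III), then 146 ± 8.06 (mTEC-IV). For the suprabasal pair in mTEC-IV, Krt1 held 103 ± 30.7 and Krt10 101 ± 19.7. Of the other pairs, Krt6a with Krt16 and Krt17 and Krt76 with Krt10 had an untested member, and Krt4 has no value for its partner Krt13.

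Single peaks specific to 1 population were found for mTEC-I and mTEC-IV. Of 88 tested keratin peaks, 8 were specific to mTEC-I (4.72% of all peaks tested were) and 7 to mTEC-IV (7.65%). Of these, 4 of the 8 and 6 of the 7 reached the filter through that population alone, so that their difference is built in and the counts are a description. The others were the mTEC-I peaks of Krt8, Krt24, Krt71 and Krt74 and the start peak of Krt222 in mTEC-IV. Those of Krt24 and Krt71 had 1 library outside mTEC-I at the filter and needed mTEC-I to reach it, so their difference is partly built in. Without mTEC-I, 2 of its 8 peaks, those of Krt8 and Krt74, would still have passed. For mTEC-II and for mTEC-III the count was 0 (0% of all peaks in both), also at an unadjusted p under 0.05 and with edgeR and DESeq2. The 8 peaks of mTEC-I belonged to Krt5 with 2 and to Krt8, Krt14, Krt24, Krt33a, Krt71 and Krt74 with 1 each. The 7 of mTEC-IV belonged to Krt19 and Krt222 with 2 each and to Krt4, Krt18 and Krt84 with 1 each. These counts depend on both libraries of a population, since the mTEC-I count was 0 without either mTEC-I library and the mTEC-IV count 0 without either mTEC-IV library. The mTEC-I count was 4 without either mTEC-II library and 5 without the first mTEC-III library, and the mTEC-IV count was 3 without the first mTEC-III library. DESeq2 gave 6 and 3.

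The share of keratin accessibility that lay in the type I cluster was between 39.1% and 46.4% in the 8 libraries. The type I cluster held 41.0% and 40.0% of the keratin tags in the mTEC-I libraries, 43.3% and 41.5% in those of mTEC-II, 46.4% and 40.1% in those of mTEC-III and 39.1% and 43.4% in those of mTEC-IV. The means were 40.5 ± 0.766%, 42.4 ± 1.25%, 43.3 ± 4.42% and 41.2 ± 3.08% (SD, n = 2), and the ranges of the libraries overlapped in every pair of populations except mTEC-I and mTEC-II. Counting Krt18 with the type I cluster, as its protein type has it, the shares were 50.8%, 59.0%, 58.6% and 59.7%, with mTEC-I lowest. Per kb of peak, the type I cluster held 69.5 to 86.1 scaled tags and the type II cluster 94.7 to 115.9 over the 8 libraries. Of the tested genes, 13 of 16 in the type I cluster and 10 of 15 in the type II cluster were called by the F test (47.3% of all genes). Higher in mTEC-I were 7 of the type I and 4 of the type II cluster (17.2% of all genes), and lower were 6 and 2 (18%). Higher in mTEC-IV were 5 and 4 (19.6%), and lower were 6 and 5 (13.5%). These counts hold genes that passed the filter through the population where they are high. They are Krt33a and Krt36 of the type I cluster in mTEC-I, and Krt4 and Krt85 of the type II cluster in mTEC-IV. Krt85 is also among the type II genes lower in mTEC-I, and Krt33a among the type I genes lower in mTEC-IV. Of the population-specific peaks, 3 of the mTEC-I and 4 of the mTEC-IV peaks lay in the type I cluster, and 5 and 3 in the type II cluster (4.72% and 7.65% of all peaks).

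**Figure D5:**
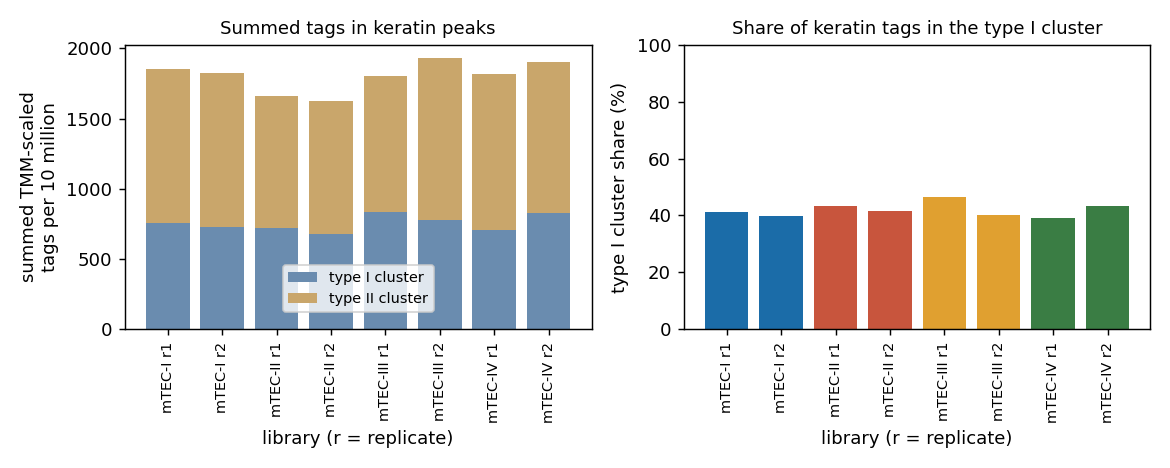
Left, summed scaled tags in the keratin peaks of the type I and type II clusters (stacked bars) in each library. Right, the share of keratin tags in the type I cluster in percent, with bars coloured by population. Totals lie between 1627 and 1929, and the shares between 39.1% and 46.4%.

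The peaks spanned chr11:99105511-100154404 and chr15:101200531-101876358 in mm9. Of the 114, 61 were intergenic (53.5%, against 37.3% of all merged peaks), 25 intronic (21.9% against 37.6%) and 16 at promoters (14.04% against 18.3%). Within 1 kb of a start lay 19 peaks (16.7% against 24.1%), at 12 genes, and within 10 kb 78 (68.4% against 42.0%). In the authors' own lists, 54 keratin peaks were called in 1 library only and 6 in all 8. The lists held 11.4% (first mTEC-III library) to 50% (first mTEC-I library) of the keratin peaks, below the share of all merged peaks in each library (14.2% and 59.1% in the same libraries). Whether exonic peaks, such as those of Krt10 and Krt1, share reads with similar keratin paralogs was not tested, and their values are uncertain to that extent.

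Genes that anchor keratin filaments differed among the populations as well. Of 19 desmosome and plakin genes, all tested, 16 were called by the F test, against 47.3% of all genes. In mTEC-I 7 were higher and 3 lower (17.2% and 18% of all genes), and in mTEC-II 1 was higher and 9 lower (4.73% and 5.77%). For mTEC-III these were 1 and 2 (2.8% and 4.65%), and for mTEC-IV 8 and 2 (19.6% and 13.5%). Their median log2 differences were 0.23, -0.47, -0.05 and 0.28. Dsg2, a desmosomal cadherin, held 108 and 98.4 (mTEC-I), 96.4 and 81.5 (mTEC-II), 79.1 and 93.7 (mTEC-III), then 228 and 223 (mTEC-IV). It was higher in mTEC-IV, with a log2 difference of 1.28 ± 0.135 (SE, adjusted p = 5.73e-07). Plec, the cytolinker plectin, differed in mTEC-IV by 0.89, and Dsp, the desmoplakin that ties keratin to desmosomes, by 0.54 (adjusted p = 9.65e-07 and 0.000615). Dsc3, a desmocollin of basal layers, was lower in mTEC-IV with 29.8 and 40.8 (mTEC-I), 67.7 and 76.1 (mTEC-II), 67.5 and 73.4 (mTEC-III), then 31.2 and 14.9 (mTEC-IV) (-1.34 ± 0.251 SE, adjusted p = 0.000345). Pkp4 was lower in mTEC-II (-0.86, adjusted p = 0.00308) and higher in mTEC-I and mTEC-IV.

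Of 16 other intermediate filament genes, 13 were tested and 6 called, close to the 47.3% of all genes. In mTEC-I 4 were higher and 1 lower (17.2% and 18% of all genes), and in mTEC-IV 1 was higher and 2 lower (19.6% and 13.5%). Lmnb2, a nuclear lamin, held 18.2 and 24.5 (mTEC-I), 69.99 and 66.9 (mTEC-II), 70.8 and 67.3 (mTEC-III), then 119 and 109 (mTEC-IV), so that mTEC-I lay below and mTEC-IV above the rest (-1.89 and 1.27, adjusted p = 3.39e-07 and 2.59e-05). Synm, synemin, was higher in mTEC-I, with a log2 difference of 1.14 ± 0.150 (SE, adjusted p = 8.83e-06), and Des, the muscle filament desmin, was lower in mTEC-IV, with a log2 difference of -1.46 ± 0.204 (SE, adjusted p = 1.48e-05).

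Marker genes of several cell types moved with mTEC-IV and mTEC-I, and their part in the keratin results was not tested. All 4 tuft cell genes (Trpm5, Pou2f3, Avil and Gnat3) were higher in mTEC-IV, with sums of 359 and 349.5 scaled tags there and 91.8 to 120.3 elsewhere. Of 3 T cell genes, Lck and Cd4 were higher in mTEC-IV and Cd3e was not called, with sums of 70.4 and 60.7 against 8.15 to 28.0. Cd79a, the B cell gene with a peak, held 28.3 and 25.5 in mTEC-IV and at most 7.13 elsewhere, and Ptprc, which encodes the CD45 used to exclude blood cells, 36.3 and 20.7 against 3.12 to 10.2. Of the 2 myeloid genes Itgam and Cd68 none was called higher in any population, and 1 was called lower in mTEC-I. Their sums were 8.89 and 17.9 in mTEC-I and 20.3 to 52.7 elsewhere. Of 3 mesenchymal genes Col1a1 was higher in mTEC-I (sums of 187 and 203 against 95.2 to 138), and of 3 endothelial genes Cdh5 and Kdr were (sums of 329 and 334 against 176 to 276). Of the genes of the sort, Itgb4 was higher in mTEC-I, H2-Aa in mTEC-II and Epcam in mTEC-IV, whereas Ly6d and L1cam were called in no population. The thymic epithelial genes Aire, Cldn4 and Foxn1 all had tags in every library, with Foxn1 higher in mTEC-I, Cldn4 in mTEC-III and mTEC-IV, and Aire in mTEC-II (1.14 ± 0.233 SE, adjusted p = 0.00369). Of the cortical genes with a peak, Prss16 was higher in mTEC-II and mTEC-III and lower in mTEC-IV, and Ly75 was called in no population.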

How the data were processed

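ATAC-seq libraries of 4 sorted populations (2 each) were analysed from the authors' merged peak table and their peak lists. The deposited table gives a tag signal per merged peak, scaled by the authors to 10000000 total tags, with HOMER's nearest-start annotation on mm9, per the file headers. The peak lists were called per library with a fragment length of 300, an FDR of 0.001 and 4-fold enrichment over the surrounding 10000 bp, per the file headers. In these lists, positions alone were used. The submitters' processing notes name bcl2fastq 2.15.0.4, Picard 1.108 and HOMER, and the aligner is not given in the sources used here. Read ends were recovered from the signal, since 100% of values were whole multiples of 0.5 tag within the rounding of the table. On these, edgeR and DESeq2 each called 25 keratin genes among the populations, and 72 and 57 keratin peaks. Tags per peak take no account of peak length or of mappability.

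Signals were scaled by TMM factors (edgeR 4.0.16) over all merged peaks, summed per gene over all assigned peaks, and tested with limma 3.58.1 (R 4.3.3) on log2(value + 1). Features with at least 10 tags in at least 2 libraries were tested, 1 coefficient was fitted per population over all 8 libraries, and p-values were adjusted by Benjamini-Hochberg over all features at 0.05. Fold changes on this scale understate the change of low peaks. Alternatives were the authors' scaling, TMM over promoter peaks, a pseudocount of 5, no filter, edgeR and DESeq2 1.42.0 on read ends, a replicate block, peaks within 10 kb or 1 kb of a start, and leaving out each library. Scripts were tested on simulated data. Named genes are all keratins called by the F test, 15 listed keratins (of which Krt13 and Krt15 had no peak), the peak nearest each start, every population-specific peak, and the 8 filament partner genes with the lowest adjusted p. Other keratins and peaks named were chosen after their values were seen. Members, gene lists and roles were chosen with earlier results of these data known.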

Additional observations from a re-analysis of the deposited data

How the results depend on the processing

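Of 186 recomputed counts and shares over all settings that keep every library, 140 stayed within 1.5 times the main count or within 1 SD, and of 224 recomputed values of named keratins 216 kept their direction and side of the threshold. With the authors' scaling alone, 4 keratins were lower in mTEC-I, 1 higher and 0 lower in mTEC-II, and 0 higher and 12 lower in mTEC-III, 19 differed between mTEC-I and mTEC-III and 6 between mTEC-II and mTEC-III, and 16, 1 and 14 peaks were specific to mTEC-I, mTEC-II and mTEC-IV. With TMM over promoter peaks, 1 was higher in mTEC-II, 4 higher and 0 lower in mTEC-III. A pseudocount of 5 gave 1 higher in mTEC-II and 16 peaks specific to mTEC-IV. edgeR gave 1 higher and 0 lower in mTEC-II and 3 higher and 0 lower in mTEC-III, and DESeq2 gave 0 lower in mTEC-II, 0 lower in mTEC-III and 3 peaks specific to mTEC-IV. With peaks within 10 kb, fewer peaks entered: 1 keratin was higher and 0 lower in mTEC-II, 0 lower in mTEC-III, 6 differed between mTEC-I and mTEC-II, and the type I share was 41.4% in mTEC-I and 44.3% in mTEC-II. Within 1 kb, where 12 genes have a peak, 7 keratins were called by the F test, 3 higher and 2 lower in mTEC-I, 0 lower in mTEC-II and mTEC-III, and 2 higher and 4 lower in mTEC-IV. In pairs within 1 kb, 3 differed between mTEC-I and mTEC-II, 3 between mTEC-I and mTEC-III, 7 between mTEC-I and mTEC-IV, 3 between mTEC-II and mTEC-IV and 3 between mTEC-III and mTEC-IV, with type I shares of 35.5% in mTEC-I and 47.0% in mTEC-II. Counting Krt18 with type I gave shares of 50.8%, 59.0%, 58.6% and 59.7%. Within 1 kb, Krt18 in mTEC-I (0.036) and Krt7 in mTEC-IV (0.24) reversed. The cause of the other shifts was not tested.

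Leaving out 1 library at a time gave 16 to 25 keratin genes and 32 to 57 peaks called by the F test, 5 to 11 higher and 4 to 10 lower in mTEC-I, 0 to 1 higher and 0 to 2 lower in mTEC-II, 0 to 2 higher and 0 to 1 lower in mTEC-III, and 4 to 11 higher and 7 to 11 lower in mTEC-IV. Pairs gave 4 to 13 (mTEC-I and mTEC-II), 6 to 12 (mTEC-I and mTEC-III), 17 to 23 (mTEC-I and mTEC-IV), 0 to 0 (mTEC-II and mTEC-III), 6 to 14 (mTEC-II and mTEC-IV) and 6 to 15 (mTEC-III and mTEC-IV). Specific peaks numbered 0 to 8 for mTEC-I and for mTEC-IV and 0 for mTEC-II and mTEC-III. The type I shares were 40.0% to 41.0%, 41.5% to 43.3%, 40.1% to 46.4% and 39.1% to 43.4% in mTEC-I to mTEC-IV. A lone library is assumed to vary like the other groups. Libraries with the same number did not deviate together (correlations of -0.014 to 0.032), and with the replicate block 23 keratin genes and 57 peaks were called by the F test and 7 keratins were lower in mTEC-I, with the other counts as before. Depth limits the low peaks, since 3 read ends are worth up to 4.94 scaled tags.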

Other observations

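Genes other than keratins between the keratin peaks also differed by population, as values with no test of the group. In the type I window, the single peaks of Gm11564 and Gm11595 held 27.6 and 17.6 and 7.98 and 11.2 scaled tags in mTEC-IV and at most 3.44 and 1.54 elsewhere. The keratin-associated genes Krtap1-5 and Krtap17-1, which encode matrix proteins of the hair shaft, held 13.2 to 21.05 and 5.34 to 21.05 over the 8 libraries. In the type II window, Gm5477 held 29.0 and 22.9 in mTEC-IV and at most 9.89 elsewhere, and 1700011A15Rik held 42.8 and 44.7 there and 10.3 to 32.3 elsewhere. Gm6042 went the other way, with 0.724 and 1.06 in mTEC-IV and 4.89 to 18.1 elsewhere, and Gm5476 held 16.0 and 20.2 there and 26.1 to 57.1 elsewhere.

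Summed by role, the basal keratins with a peak, Krt5 and Krt14, held 201 and 224 (mTEC-I), 109 and 139.97 (mTEC-II), 142 and 138 (mTEC-III), then 58.8 and 46.8 (mTEC-IV) scaled tags. The 6 keratins of simple epithelia held 581 and 549 in mTEC-I and 877 and 917 in mTEC-IV, with mTEC-II and mTEC-III between 631 and 813.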
